A study of Mus musculus with 2 samples.

Results

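Later-intron peaks with the E-box motif are sites at which Olig2 was bound inside genes, in intron 2 or any intron after it. They were taken from a single list of Olig2 peaks in the adult mouse spinal cord. A peak was counted when its deposited annotation placed it in an intron numbered 2 or higher, its nearest gene was protein-coding, and the motif search recorded at least 1 hit of the E-box motif in it. There were 574 such peaks among 4215, or 13.6% (95% exact binomial interval 12.6 to 14.7%). None of these criteria used the peak score. Cords were removed whole from C57BL/6 males aged 6 weeks, and each immunoprecipitation used the pooled tissue of 5 of them. The groups were an Olig2 ChIP library and an Input Control library of sheared chromatin from the same kind of tissue. The authors aggregated the data of 2 experiments, with both libraries as inputs of peak calling. The list gives 1 value per peak, with no replicate and no count of the reads behind it. Chromatin of all cell types of the cord was mixed, so the list does not say in which cells a site was bound.

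Olig2 belongs to the basic helix-loop-helix (bHLH) family of transcription factors and is required to form motor neurons and the oligodendrocyte (OL) lineage. Its expression persists in adult OL precursors and OLs. bHLH factors bind DNA as dimers, each partner reading one side of a short palindrome of the form CANNTG, the E-box. Introns are the stretches of a gene that are spliced out of its RNA. Many enhancers, which act on promoters from a distance and often skip the closest gene, lie within them. First introns begin next to the transcription start site (TSS), whereas later introns lie deeper in the gene, often far from any start.

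The search for members began with 1364 peaks annotated to introns. Of these, 853 were in later introns and 715 of the 853 had a protein-coding nearest gene. The E-box motif was recorded in 80.3% of the 715 and was missing from 141. A further 112 later-intron peaks with the motif were left out because their nearest gene was not protein-coding. Comparisons below are with 353 first-intron peaks and 600 intergenic peaks chosen by the same motif and gene type, and with the 141 later-intron peaks that lacked the motif.

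The sequences of 7 of the 12 highest members are shown because they span the forms of the motif, from a lone palindrome to 3 sites and to peaks without any intact E-box. Each is the 51 bp of the deposited peak in the RefSeq GRCm38.p6 reference (the mm10 assembly), read 5′ to 3′ on the + strand. Capitals mark each CANNTG, or the 8 bases that the deposited motif hit covers where no CANNTG is present.
Kcnq1 intron (chr7:143174758-143174808, + strand): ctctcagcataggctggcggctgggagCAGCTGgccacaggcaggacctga
Nid1 intron (chr13:13481183-13481233, + strand): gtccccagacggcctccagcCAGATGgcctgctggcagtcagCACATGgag
Nrxn2 intron (chr19:6453535-6453585, + strand): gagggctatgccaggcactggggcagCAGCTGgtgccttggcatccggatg
Adgrg6 intron (chr10:14482603-14482653, + strand): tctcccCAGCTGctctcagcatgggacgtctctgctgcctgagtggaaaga
Rnf122 intron (chr8:31128501-31128551, + strand): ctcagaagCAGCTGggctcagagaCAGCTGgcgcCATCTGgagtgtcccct
Adap1 intron (chr5:139286570-139286620, + strand): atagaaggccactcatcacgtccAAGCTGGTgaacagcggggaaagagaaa
Tead1 intron (chr7:112760913-112760963, + strand): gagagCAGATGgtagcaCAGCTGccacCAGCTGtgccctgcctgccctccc

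A second set is shown because its peaks lie in genes of OLs and their regulators or have such a gene as the deposited nearest gene. Several of them sat in an intron of 1 gene while another gene had the nearest TSS.
Tll2 intron, nearest to Opalin (chr19:41101558-41101608, + strand): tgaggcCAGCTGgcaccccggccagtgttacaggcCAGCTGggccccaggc
Inpp5a intron, nearest to Nkx6-2 (chr7:139545481-139545531, + strand): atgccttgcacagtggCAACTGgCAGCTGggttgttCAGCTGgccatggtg
Slc7a14 intron, nearest to Cldn11 (chr3:31213936-31213986, + strand): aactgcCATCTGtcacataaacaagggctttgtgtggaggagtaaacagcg
Ttc25 intron, nearest to Cnp (chr11:100571250-100571300, + strand): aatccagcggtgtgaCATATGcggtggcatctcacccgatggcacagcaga
Rnf220 intron (chr4:117277218-117277268, + strand): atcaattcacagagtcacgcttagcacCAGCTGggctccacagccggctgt
Sept9 intron (chr11:117296949-117296999, + strand): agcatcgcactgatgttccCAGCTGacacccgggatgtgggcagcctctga
Zfp536 intron (chr7:37704601-37704651, + strand): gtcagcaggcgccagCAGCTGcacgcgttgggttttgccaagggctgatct

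The highest member lay in intron 2 of 15 of Kcnq1, a voltage-gated potassium channel subunit, with a deposited peak score of 99.6. It was the 9th highest of all 4215 peaks and lay 67529 bp from the TSS. Its 51 bp held a single CAGCTG. Next came Nid1, which encodes the basement membrane glycoprotein nidogen, with a score of 97.7 in intron 7 of 19. The Nid1 peak had no CAGCTG and instead held CAGATG along with one copy of CACATG. A peak in intron 5 of 22 of Nrxn2, a neurexin of synaptic adhesion, scored 94.2. Adgrg6, deposited under its older name Gpr126 and known as a receptor needed for Schwann cell myelination, had a peak of 90.6 in intron 2 of 24.

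Ccz1, which acts with Mon1 in traffic to lysosomes, had a score of 85.2 in the last of its 14 introns, with 3 different E-boxes within the 51 bp. Rnf122, a RING-finger ubiquitin ligase, scored 83.5 in an intron of only 244 bp and carried 3 E-boxes. Hibadh, an enzyme of valine breakdown, scored 82.2, and P4ha2, a prolyl hydroxylase of collagen, scored 81.3. The peak of 79.4 in intron 4 of Adap1, an Arf GTPase-activating protein, was nearest to the TSS of Get4, a factor for inserting tail-anchored proteins, and its 51 bp lacked CANNTG. Tead1, a transcription factor of the Hippo pathway, scored 77.7, with its peak 1554 bp from the deposited TSS but 81582 bp from the closest RefSeq TSS in GRCm38.p6. The peak of 74.7 in intron 12 of Anks1, an adaptor of Eph receptors, was nearest to Tcp11. At the other end of the range, members in Stk39 (a kinase that regulates ion cotransport) and Dlgap2 (a postsynaptic scaffold) scored 2.76.

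Scores over the 574 members had a median of 13.5 and quartiles of 8.68 and 22.9. The scale of the score is not named, so it was compared only within the list. A score at or above the list median was found in 58.0% of members, against 51.2% of all peaks. A score of at least 20 was found in 182 members (31.7%), against 24.8% of all peaks. Members made up 2 of the 10 highest peaks, 13 of the highest 50 and 96 of the highest 500.

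**Figure D1:**
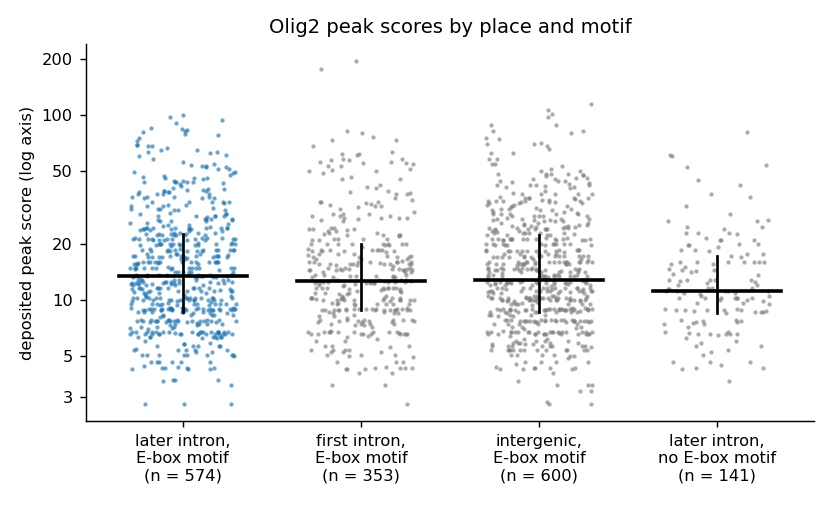
Deposited peak scores on a log axis for later-intron E-box peaks and 3 other sets, 1 point per peak, with the median (horizontal bar) and the quartiles (vertical line). The medians were 13.5, 12.8, 12.9 and 11.2 from left to right, and the 4 sets overlap over nearly their whole range.

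Scores of members and of E-box peaks elsewhere overlapped almost fully. The share at or above the list median was 58.0% in members and 57.2% in first-intron E-box peaks (odds ratio 1.03, 95% interval 0.790 to 1.35, Fisher's exact test, two-sided, adjusted p = 0.837). It was 58.0% in members and 56.7% in intergenic E-box peaks (odds ratio 1.06, interval 0.838 to 1.33, Fisher's exact test, adjusted p = 0.837). Against later-intron peaks without the motif, the share was 58.0% in members and 47.5% in the others (odds ratio 1.53, interval 1.05 to 2.21). That difference had an unadjusted p of 0.0293 and did not pass after adjustment over 9 tests (Fisher's exact test, adjusted p = 0.132). It did pass under 4 of the alternative settings given in the closing section, among them a setting that moved members without CANNTG to the other set. These tests count peaks of 1 list, which are not replicates of a condition, and the intervals cover counting error only.

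Members were sparser per base of intron than their first-intron counterparts. There were 574 members in 683.6 Mb of later-intron sequence, or 0.840 per Mb, against 353 peaks in 263.4 Mb of first introns, or 1.34 per Mb. The ratio was 0.627 (95% interval 0.548 to 0.718, exact binomial test, adjusted p = 1.44e-10). Peaks were chosen by the type of their nearest gene, whereas sequence was chosen by the type of the gene that holds the intron. Over the same sequence, the ratio was 0.678 with peaks of any gene type. It was 0.454 with peaks whose host was also the nearest gene. CAGCTG words were about as frequent in both kinds of sequence, at 422.3 per Mb in later introns and 436.6 per Mb in first introns, so that the ratio per word was 0.648. With peaks and sequence within 10 kb of any RefSeq start left out, an alternative chosen after seeing the data, the densities were 0.808 per Mb in later introns and 1.02 per Mb in first introns. The ratio was then 0.793 (interval 0.662 to 0.955, exact binomial test, p = 0.0132) and no longer passed after adjustment (adjusted p = 0.0711).

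When each base and each peak was given the lowest intron number that any RefSeq protein-coding transcript assigns to it, the density was 1.40 peaks per Mb in intron 1, 1.00 in intron 2 and 0.945 in intron 3. It was 0.841 in introns 4 to 5, 0.899 in introns 6 to 10 and 0.580 in intron 11 or later (interval 0.466 to 0.714). By this count 16 of the 927 E-box peaks annotated to introns fell outside the RefSeq introns used and were not placed.

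**Figure D2:**
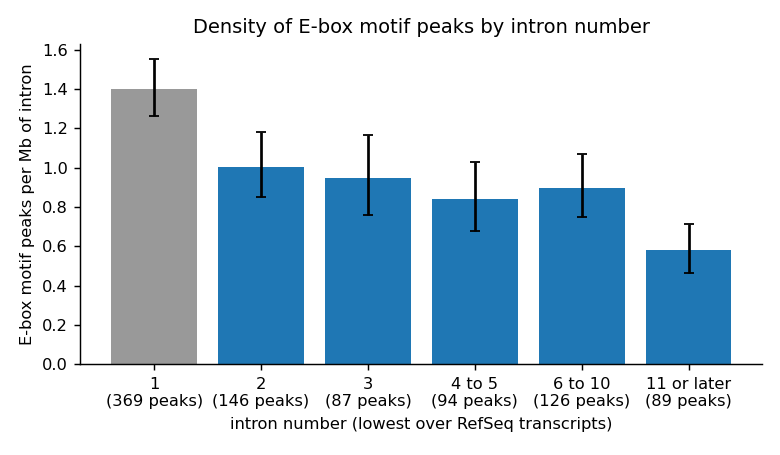
E-box motif peaks per Mb of intron by intron number, with the number of peaks under each bar and 95% exact Poisson intervals for counting error. Density was 1.40 per Mb in intron 1, between 0.841 and 1.00 in introns 2 to 10, and 0.580 from intron 11 on.

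By the deposited numbering, 156 members (27.2%) lay in intron 2, 87 in intron 3, 111 in introns 4 to 5, 125 in introns 6 to 10 and 95 in intron 11 or later. The highest intron number was 57, and 65 members (11.3%) were in the last intron of their transcript. The median score did not follow the intron number, with 13.5 in intron 2, 12.3 in intron 3, 14.9 in introns 4 to 5, 12.5 in introns 6 to 10 and 13.6 from intron 11 on. The CAGCTG share was 53.2% in intron 2, 55.2% in intron 3, 60.4% in introns 4 to 5, 57.6% in introns 6 to 10 and 61.1% from intron 11 on, and no trend was tested.

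Bounds of the intron were found for 568 members. The introns had a median length of 11172 bp, with quartiles of 3895 and 33612 bp, and the members lay a median of 2338 bp from the closer splice site. For 102 members that distance was over 10 kb, and for 50 it was at most 200 bp. Within the intron, 260 of 568 members (45.8%, interval 41.6 to 50.0%) were closer to the 5′ end than to the 3′ end, a share whose difference from an even split did not pass after adjustment (exact binomial test, p = 0.0485, adjusted p = 0.146). In 5 equal parts of the intron from the 5′ end, members numbered 92, 108, 128, 122 and 118. Only 9 members (1.57%) were within 1 kb of a RefSeq TSS, against 39 of the first-intron E-box peaks (11.05%). Members near such starts inside genes included those in Dctn1, a dynactin subunit, and Limk1, a kinase of the actin regulator cofilin. The median distance to the TSS of the nearest gene, as deposited, was 33070 bp, and 83 members were over 100 kb away.

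The palindrome CAGCTG was the most frequent E-box in the members. It was present in 328 of 574 (57.1%), against 198 of 353 first-intron E-box peaks (56.1%; odds ratio 1.04, interval 0.799 to 1.36, Fisher's exact test, adjusted p = 0.837) and 32.9% of all peaks. The last share includes peaks without the motif and is not comparable. CAGATG, read CATCTG on the other strand, was in 151 members (26.3%). All other forms were rare, with CACATG in 23 members, CATATG in 19, CAAGTG in 16, CAACTG in 15 and every remaining form in at most 9. No CANNTG at all was found in the 51 bp of 96 members (16.7%). The most frequent hit in those was AAGCTGGC or its complement GCCAGCTT, in 17 members. The hit in Adap1, AAGCTGGT, was of the second most frequent kind, in 11 members.

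Members with CAGCTG had a median score of 14.0, those with another E-box 12.7 and those without any 11.4. A score at or above the members' own median was found in 52.7% of members with CAGCTG and 46.3% of the rest (odds ratio 1.29, interval 0.928 to 1.80, Fisher's exact test, adjusted p = 0.273). There were 121 members with at least 2 E-boxes and 18 with at least 3, up to 5. A score at or above the members' median was found in 47.1% of members with at least 2 and 50.8% of the others (odds ratio 0.864, interval 0.578 to 1.29, Fisher's exact test, adjusted p = 0.809). The 29 members with at least 2 copies of CAGCTG had a median score of 14.3.

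The motif spans 8 bases and so weights those next to the palindrome, and no recorded hit had A directly after CAGCTG. Shares of flanking bases therefore follow in part from the rule. Of 358 CAGCTG sites in members, 21.8% read CCAGCTGC, 19.3% ACAGCTGC and 18.4% ACAGCTGG, each counted together with its reverse complement. In 218 sites of first-intron E-box peaks these shares were 31.2%, 15.1% and 18.3%.

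**Figure D3:**
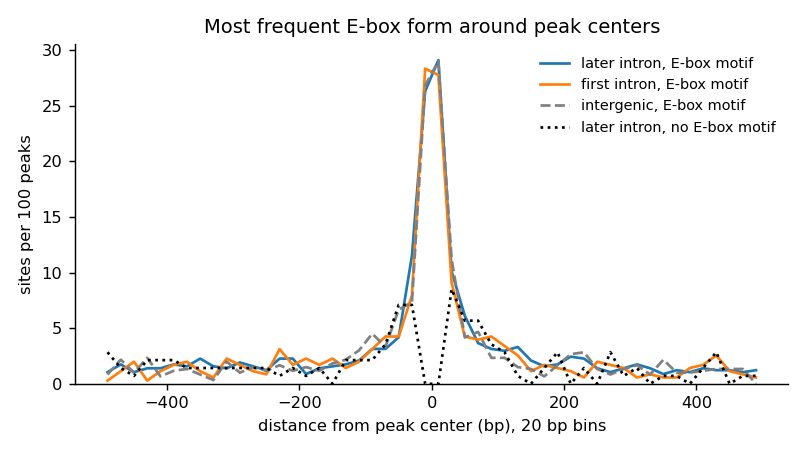
CAGCTG sites per 100 peaks in 20 bp bins by distance from the peak center, for 4 sets of peaks. In members the 2 central bins held 26.3 and 29.1 sites per 100 peaks, against a mean of 1.51 in bins at least 200 bp away.

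The concentration of CAGCTG at the center of members follows from the rule, which asks for a motif hit within the 51 bp, and so does its absence from the center of later-intron peaks without the motif. Outside the 51 bp the rule sets nothing. In the bin 40 to 60 bp on the side of higher coordinates, members had 6.10 sites per 100 peaks and later-intron peaks without the motif had 5.67. On the other side, members had 4.18 and later-intron peaks without the motif had 7.09. All 4 values were above the 1.51 of members' distant flanks. Within the 51 bp, 165 of 358 CAGCTG sites (46.1%) lay at most 10 bp from the center, where 43.5% of possible positions are.

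None of the 19 other motifs with hits recorded in the list differed between members and first-intron E-box peaks (Fisher's exact tests, 0 with an adjusted p and 0 with an unadjusted p under 0.05, lowest unadjusted p = 0.0549). The most frequent of them in members had TGATTGGC as its most frequent word, which contains the CCAAT box in reverse. It was found in 34 members (5.92%), against 18 first-intron E-box peaks (5.10%). GC content at or above the list median was found in 36.2% of members and 41.4% of first-intron E-box peaks (odds ratio 0.806, interval 0.614 to 1.06, Fisher's exact test, adjusted p = 0.273). Over 300 bp instead of 51 bp the odds ratio was 0.632 and passed (Fisher's exact test, adjusted p = 0.0108). The median GC of the 51 bp was 56.9% in members and 60.8% in all peaks, while later introns as a whole were 42.3% G or C. Mostly repeat-masked sequence was found in 16 members (2.79%), against 1.59% of all peaks, so a low share was not particular to members. Of later-intron bases, 28.6% were repeat-masked, and the part of read mapping in the low share of peaks was not tested.

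The gene whose intron held a member was often not the gene deposited as having the nearest TSS. The intron's transcript was the nearest transcript for 315 members and differed for 259. Of the 259, 81 were other transcripts of the same gene and 178 belonged to another gene. That is 31.0% of members, close to the 44 of 141 (31.2%) among later-intron peaks without the motif. In first-intron E-box peaks it was 17 of 353 (4.82%). The nearest gene is set by distances to starts, which differ between the 2 kinds of intron, and their part in this contrast was not tested. Members hosted by another gene had a median score of 14.6, and the remaining members 12.7. In all, members had 515 nearest genes and 489 host genes.

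Some of these cases involved OL genes, which are described because the study names them. The peak nearest to Opalin, a membrane protein of OLs, lay in intron 13 of 20 of Tll2, a metalloprotease gene, with a score of 62.5 and 2 copies of CAGCTG. It was 24470 bp upstream of the deposited Opalin start. The peaks nearest to Nkx6-2, a homeobox regulator of OL maturation, lay in introns 9 and 11 of Inpp5a, an inositol phosphatase gene, with scores of 53.9 and 8.99. The higher was 37291 bp from the deposited Nkx6-2 start. The peak nearest to Cldn11, the tight-junction protein of CNS myelin, lay in the last intron of Slc7a14, an amino acid carrier gene, with a score of 31.3 and CATCTG as its only E-box. It was 64041 bp from the deposited Cldn11 start. The peak nearest to Cnp, a myelin enzyme, lay in the last intron of Ttc25, 3664 bp upstream of the deposited Cnp start, with a score of 30.8 and CATATG. Their presence in this list is no independent evidence, since the study chose them on these samples. The study also reports ChIP-qPCR from separate immunoprecipitations, with enrichment over input at each tested target. Those targets included Nkx6-2, Cldn11 and Nrxn2, and the peak scores it gives for them, 53.86, 31.26 and 94.15, are those of members described here. For Nrxn2 the study describes the enrichment as only modest. Opalin was also a target, but the study gives no score that ties it to the member described here.

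Most hosts held a single member, 68 held at least 2 and 9 held at least 3, of which 7 are described here. Rnf220, a ubiquitin ligase gene, held 5, with scores of 11.1, 17.4, 16.7, 12.4 and 35.7 from its 5′ to its 3′ end, and all 5 contained CAGCTG. The deposited nearest TSS of 3 of them was that of Tmem53. For the members of 35.7 and 16.7 its deposited distance was 24903 and 90630 bp. Other RefSeq starts in GRCm38.p6 were closer to both, at 12212 and 32491 bp. Sept9, which encodes a septin of the membrane cytoskeleton, held 4 in intron 2, scoring 43.4, 8.90, 10.0 and 11.3, and all 4 contained CAGCTG. The weaker 3 lay close together, between 69.6% and 72.7% of the gene's length.

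Nrxn2 held 4 members, of which 2 in intron 5 scored 33.6 and 94.2 and contained CAGCTG. Those in introns 11 and 17 scored 5.41 and 2.76 and did not. Zfp536, a zinc-finger transcription regulator, held 4 in introns 2 to 4, with scores of 24.2, 6.75, 11.5 and 15.7. Camta1, a calmodulin-binding transcription activator, held 4 with scores of 7.76, 27.6, 34.0 and 11.2. All 4 had Vamp3, a vesicle fusion protein gene, as the deposited nearest gene. Other RefSeq starts in GRCm38.p6 were closer to the members of 34.0 and 27.6, at 76163 and 149893 bp.

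Mbp, which encodes myelin basic protein, held 3 members, with scores of 16.1, 13.4 and 6.71, and none contained CAGCTG. They are on chromosome 18 and are described without sequence. A further peak of 17.4 without the motif was annotated to a start site inside the gene. Igf1r, the receptor of insulin-like growth factor, held 3 in intron 2, with scores of 5.67, 12.1 and 9.53.

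**Figure D4:**
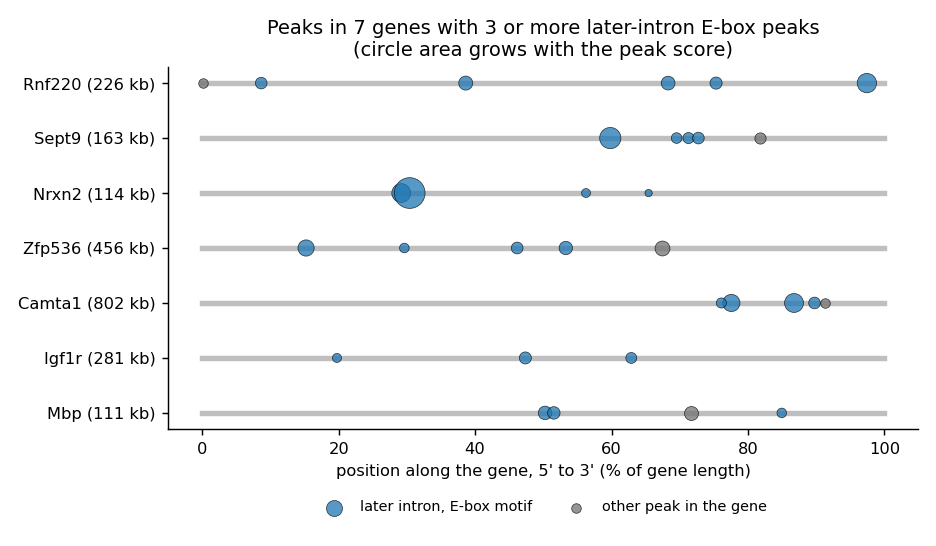
Peaks along 7 of the genes with at least 3 members, drawn 5′ to 3′ as percent of gene length, with circle area growing with the peak score. Members lie between 8.64% and 97.4% of the length of Rnf220, between 15.2% and 53.3% of that of Zfp536 and between 76.1% and 89.8% of that of Camta1.

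Host genes were long. They had a median of 58.0 kb of later-intron sequence, against 13.3 kb over the 17481 protein-coding genes with at least 2 introns, of which 2.75% hosted a member. Lists of genes were therefore also described by members per Mb of later intron, which was 0.815 over all these genes. Lists overlap and none was tested.

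Of 49 mature OL and myelin genes, 5 hosted 11 members (Rnf220, Mbp, Prr5l with 10.3, Nfasc with 9.11 and Dock9 with 8.90), or 4.68 per Mb, and 2.81 without Rnf220. Prr5l is a component associated with the mTOR complex and Nfasc is an adhesion protein of the node of Ranvier. Of 22 OL precursor genes, 4 hosted 5 members, or 1.62 per Mb (1.04 without Megf11), led by Lims2 (24.5), an adaptor of integrin adhesion, Megf11 (21.2), Epn2 (14.6), an endocytic adaptor, and Dscam (9.53), an adhesion molecule. Of 34 transcription factors of the OL lineage, 4 hosted 9 members, or 2.83 per Mb (1.70 without Zfp536), namely Nfix (41.6), Tcf4 (27.1), Zfp536 and Nfib (6.57). Tcf4 encodes an E protein, the class of bHLH factor that dimerizes with tissue-specific ones. Among 44 chromatin remodelers and corepressors, 5 hosted 7 members, or 1.96 per Mb (1.16 without the gene with most of them), among them Smarcc1 (13.5), Kdm4b (10.0) and Chd7 (7.00).

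Markers of other cells of the cord were also among the hosts. Several of their lists were above the value over all genes, but each rested on few members. Of 36 neuronal genes, 2 hosted 5 members, 4 of them in Nrxn2 and the other in the sodium channel gene Scn8a (14.9). That was 0.826 per Mb, and 0.168 without Nrxn2. Of 25 astrocyte genes only the glutamate transporter gene Slc1a3 (9.53) was a host (0.914 per Mb from 1 member), and of 21 microglial genes none was, over 0.605 Mb of later intron. Of 26 endothelial and mural cell genes, Pecam1 (22.4) and Ets1 (9.95) were hosts (1.69 per Mb from 2 members, and 0.93 without Ets1). Of 17 Schwann cell genes only Prx (5.89), the periaxin gene, was (2.17 per Mb from 1 member).

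Among larger families, 14 of 152 genes of the microtubule and actin cytoskeleton hosted 19 members (1.61 per Mb, and 1.29 without Sept9). The hosts included Sept9, Myo18b (38.6) and Csrp1 (20.03). Receptor tyrosine kinase signaling had 6 of 68 genes as hosts of 8 members (1.68 per Mb, and 1.10 without Igf1r). Among these hosts were Grb10 (17.4), Pik3r2 (12.4), Igf1r and Gab2 (8.99). Wnt, BMP, Notch and Hedgehog signaling had 5 of 90, hosting 6 members (1.65 per Mb, and 1.15 without Gli2). The highest of these was in Gli2 (69.0), a transcription factor of the Hedgehog pathway, followed by Smad1 (22.4) and the receptor gene Acvr1 (15.6), both of BMP signaling, and by Sufu (10.9), an inhibitor of Gli factors. For protein kinase C, calcium and phosphoinositide enzymes, 8 of 93 genes hosted 10 members (1.08 per Mb, and 0.879 without Inpp5a). These genes included Inpp5a, Prkcz (49.2), Plce1 (32.7) and Itpr2 (23.9).

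The list of lipid and cholesterol synthesis also holds the serine synthesis gene Phgdh. It had 4 of 72 genes as hosts, or 1.84 members per Mb (1.415 without Agpat3). Among these hosts were Dhcr7 (8.99), which makes the last step to cholesterol, Agpat3 (6.71) and Phgdh (3.71). Solute carriers were hosts in 16 of 379 cases with 17 members (1.24 per Mb, and 1.095 without the gene with most of them). They were led by Slc20a2 (52.2), Slc24a2 (43.7), Slc7a14 and Slc22a23 (21.4). Ion channels hosted 8 members in 8 of 147 genes (0.656 per Mb), among them Kcnq1, Cacna2d4 (30.9) and Kcnn3 (18.5). Axon guidance and cell adhesion genes hosted 12 members in 8 of 174 genes (0.448 per Mb), but with the highest median score of these lists (27.3), from Nrxn2, Pcdh9 (40.3), Sema4d (40.1), Ephb2 (35.6) and others. In a list of 30 genes that the study names, 4 hosted 15 members. Tcf4 and Slc1a3, which the study also names, were not counted among these hosts. The study chose its genes on these same peaks, so this count is no independent evidence.

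**Figure D5:**
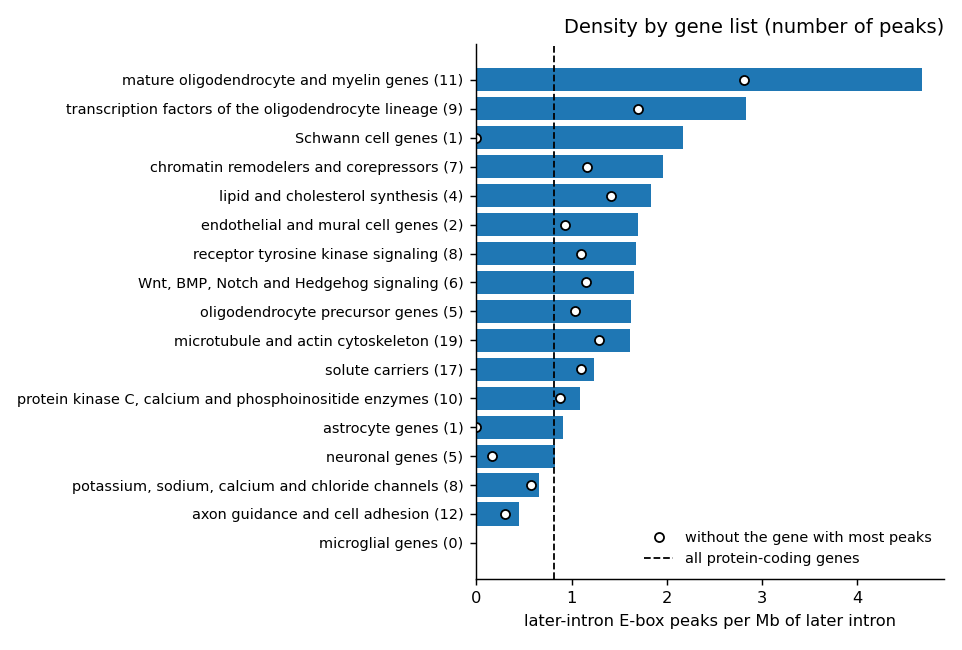
Members per Mb of later intron for 17 gene lists, with the number of members in brackets. The dashed line is the value over all protein-coding genes (0.815 per Mb), and open circles leave out the gene with most members, which lowers mature OL and myelin genes to 2.81 per Mb and neuronal genes to 0.168 per Mb.

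Some members shared a gene with a peak at its promoter. The nearest gene of 69 members (12.0%) had a peak within 1 kb of its TSS, counting the member itself where it lay that close. For 332 genes the member was the only peak assigned. Among host genes that share was 12.5%, against 8.65% of all protein-coding genes with at least 2 introns. Members overlapped a RefSeq-annotated enhancer in 2 of 574 cases, against 2 of 353 first-intron and 5 of 600 intergenic E-box peaks, 2 of 141 later-intron peaks without the motif and 23 of all 4215 peaks. The peak in Rasa3 (22.9), a Ras GTPase-activating protein gene, lay in an enhancer recorded as active in dorsal root and trigeminal ganglia. The peak in Phc2 (7.77), a Polycomb gene, lay in one recorded as active in tissues that included neural tube, hindbrain, midbrain, forebrain, eye and trigeminal ganglion.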

How the data were processed

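Reads from whole spinal cord were aligned by the authors to mm10 with BWA, peaks were called with MACS2 from the ChIP and Input libraries, aggregating 2 experiments, and HOMER annotated them and searched 20 motifs. The peak score was used as deposited, with no scale named. The GC content was deposited by the authors as a fraction and matched the GRCm38.p6 sequence for 574 of 574 members. Distances to the TSS, annotations and motif hits were used as deposited. The Input Control has no values of its own here, and a short second sheet was not used.

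Hosts were matched to RefSeq by transcript (2 members unmatched, 8 with a non-coding host). Intron density used the union of introns of protein-coding transcripts, without exons. Sets were compared by two-sided Fisher's exact or exact binomial tests with Benjamini-Hochberg adjustment over 9 tests (threshold 0.05), tested on simulated data. Odds ratios have log-scale (Woolf) intervals. Promoter peaks were those within 1 kb of a TSS.

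Members, lists, tests and named genes were chosen with earlier results of these data known. Named genes are the hosts and nearest genes of the 12 highest and 2 of the lowest members, hosts of at least 3 members, genes the study names, and up to 4 highest hosts per list. Dock9, Dctn1, Limk1, Rasa3 and Phc2 were named after their values were seen. Some genes that this rule names, and 1 list, are not reported here. Of 19 lists, genes without at least 2 introns were dropped. There were 78 alternative values, 22 of them from settings added after seeing the data. python 3.11.15, numpy 2.4.6, pandas 2.3.3, scipy 1.17.1 and matplotlib 3.10.9 were used.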

Additional observations from a re-analysis of the deposited data

How the results depend on the processing

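Of 78 alternative values, 67 kept their direction and their side of the threshold. The odds ratio of scores in members against later-intron peaks without the motif passed the threshold of Fisher's exact test at 2.43 with scores of at least 10 (adjusted p = 0.017), 1.77 with any gene type (0.00542), 1.57 where a motif peak had to hold CANNTG (0.0232) and 1.87 at the upper quartile (0.0252). In the CANNTG setting the 96 members without CANNTG were counted with the peaks without the motif. Its value therefore belongs to another contrast, of motif peaks with CANNTG against all other later-intron peaks. The GC odds ratio passed over 300 bp (0.632). The density ratio was 0.793, no longer passing, over 10 kb from any RefSeq start, and the cause was not tested. Among results that passed in neither setting, 4 turned direction. With hosts that are also the nearest gene, the score odds ratio was 0.959 against first-intron and 0.966 against intergenic E-box peaks. The odds ratio for E-box number was 1.22 over 200 bp. The CAGCTG odds ratio was 0.998 with intron numbers from GRCm38.p6, chosen after seeing the data. Asked of the middle of the intron instead of its 5′ end, the share was 53.5%, which is another quantity. No paired analysis was possible because the list holds 1 value per peak. Without read counts per peak or replicates, the spread of a score between experiments is unknown.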
